A study of Homo sapiens with 18 samples.

Results

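The 39 genes described here encode the heat shock chaperones of the cytosol and mitochondria, their cochaperones and a pair of heat shock transcription factors. They were taken by gene name from the 44016 features counted in the study, and all 39 were found and passed the filter on low counts. By role they divide into 2 heat shock factors, 3 HSP90 proteins, 9 HSP70 and HSP110 proteins, the 2 subunits of the mitochondrial chaperonin, 4 small heat shock proteins, 9 HSP40 proteins, 4 HSP70 cochaperones and 6 HSP90 cochaperones. Polyadenylated mRNA was sequenced from A549, an established cell line of human lung adenocarcinoma, in 18 libraries that form 6 groups of 3 biological replicates. The groups were a stable S100A16 knockdown (KD) given 100 µM hydrogen peroxide (H2O2) for 2 h, the same S100A16 KD untreated, a stable hnRNPM KD untreated, a stable MagoHB KD untreated, wild-type (WT) cells given 100 µM H2O2 for 2 h, and WT cells untreated. S100A16 is a calcium-binding protein, hnRNPM an RNA-binding splicing regulator and MagoHB belongs to the core of the exon junction complex. The title names splicing controlled by S100A16 during oxidative stress as the subject. The control cells were WT, and no group is a line with a vector alone. How the mRNAs were knocked down is not stated in the labels, nor whether each KD is more than 1 line. Culture dates are not given either, so p-values measure the spread between these libraries.

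Chaperones bind unfolded or partly folded proteins and release them in cycles of ATP binding and hydrolysis. HSP40 (J-domain) proteins deliver clients to HSP70 and stimulate its ATPase, nucleotide exchange factors of the BAG and HSP110 families release them, and STIP1 passes selected clients on to HSP90, where further cochaperones set the pace of the cycle. Heat shock factors, chiefly HSF1, bind repeats of the sequence GAA and its inverse, the heat shock element, upstream of many of these genes when unfolded protein accumulates, and tumour cells often keep the system active without heat.

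The heat shock element was searched in the RefSeq promoter table (GRCh38.p14, 250 bases before to 50 bases after each start) as 3 alternating units with 2 free bases between them, either GAA, TTC, GAA or TTC, GAA, TTC. Each of these is the reverse complement of the other, so both strands were covered. The table held 33 of the 39 members, with 47 promoters. A full element stood in a promoter of 7 of these 33 members, against 0.608% of the 27305 genes in the table. Allowing 1 of the 9 fixed letters to differ, 18 of 33 members had one, against 7.6% of all genes. The 7 members with a full element are shown because they let the mRNA changes below be read beside the site through which the pathway is known to act; the 30 bases around it are given on the gene's own strand, 5′ to 3′, with the element in capitals.
CHORDC1 (chr11:90223083-90223112, minus strand, 3 overlapping elements): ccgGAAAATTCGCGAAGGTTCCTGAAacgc
HSPD1 (chr2:197500061-197500090, minus strand, 2 overlapping elements): gcattTTCTGGAAAGTTCTGGAAccgagcg
HSP90AA1 (chr14:102087111-102087140, minus strand): gagggttcTTCCGGAAGGTTCgggaggctt
HSP90AB1 (chr6:44247823-44247852, plus strand): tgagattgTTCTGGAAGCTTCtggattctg
HSPA8 (chr11:123062170-123062199, minus strand): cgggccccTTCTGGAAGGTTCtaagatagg
DNAJA1 (chr9:33025268-33025297, plus strand): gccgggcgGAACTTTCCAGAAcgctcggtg
DNAJB6 (chr7:157336865-157336894, plus strand): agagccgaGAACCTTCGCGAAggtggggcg
Counted from the annotated start as position 1, the element ran from -60 to -38 in CHORDC1, from -88 to -76 in HSP90AA1, from -55 to -43 in HSPA8 and from 4 to 16 in DNAJA1. The printed element ran from -112 to -100 in HSP90AB1, from -131 to -119 in DNAJB6 and from -245 to -228 in HSPD1. Other annotated promoters of HSPD1, HSP90AA1 and HSP90AB1 held no full element, nor did that of HSPE1. HSP90AB1 and HSPA8 each held 2 full elements in the promoter, of which 1 is printed. A match of letters is a description of these windows; binding by a heat shock factor was not measured.

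Total counts ran from 36612997 (hnRNPM KD 2) to 51406431 (MagoHB KD 2), and members took 1.53% to 2.21% of a library. Each targeted mRNA was low in its own KD, at 7.11% of WT for S100A16 in the untreated S100A16 KD, 20.8% for HNRNPM in the hnRNPM KD and 34.8% for MAGOHB in the MagoHB KD. MagoHB KD 2 and hnRNPM KD 3 lay farthest from their own group means, by 0.176 and 0.139 on the log2 scale per gene on average, and both are named below where a value rests on them. S100A16 KD 1, at 0.0547, was left out together with them in an alternative although it lay as close as its replicates. The 9 A549 and epithelial markers were all detected, and their summed level was 13040 to 13500 CPM in the untreated S100A16 KD, 10000 to 10280 CPM in the hnRNPM KD and 9166 to 9837 CPM in the MagoHB KD, against 12320 to 13460 CPM in WT. The 6 fibroblast markers summed to 25.4 to 30.4 CPM in the untreated S100A16 KD and to 43.6 to 61.2 CPM in the hnRNPM and MagoHB KDs, against 39.8 to 63.4 CPM in WT. The 6 leukocyte markers summed to 8.17 to 8.3 CPM in the untreated S100A16 KD, 3.78 to 4.45 CPM in the hnRNPM KD and 4.53 to 7.57 CPM in the MagoHB KD, against 2.89 to 3.64 CPM in WT, with 1 of the 6 at 0 in all WT libraries. The 4 endothelial markers stayed at 1.02 CPM or below in every library. The part of these shifts in the KD differences below was not tested. Levels are CPM, the count of a gene relative to its library size as scaled by TMM, and each difference is a log2 fold change from edgeR's quasi-likelihood test, called where the Benjamini-Hochberg adjusted p over the 22382 genes tested was under 0.05. Scaling by total counts alone moved the median of all genes to 0.29 for the S100A16 KD against WT, 0.13 for the hnRNPM KD and 0.25 for the MagoHB KD, where TMM gave 0.06, 0.02 and 0.04, so changes of that size or less depend on the scaling.

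In untreated WT cells the cytosolic HSP90 mRNAs were the most abundant members per exon length, on the deposited RPKM values. HSP90AB1, the constitutive HSP90, stood at 2049 ± 19.3 RPKM and HSP90AA1, its stress-inducible relative, at 1049 ± 27.4 RPKM (SD, n = 3 here and below). HSPA8, the constitutive cytosolic HSP70, followed at 451 ± 18.5 RPKM, and DNAJA1, an abundant J-domain partner of HSP70, at 363 ± 2.01 RPKM. HSPD1 and the mitochondrial HSP70 HSPA9 came next, at 249 ± 3.42 and 245 ± 3.52 RPKM, which do not differ beyond their spread. The inducible HSP70 genes were lower, HSPA1B at 78 ± 4.56 RPKM and HSPA1A at 52.6 ± 4.03 RPKM. These adjacent genes on chromosome 6 share 72.6% of the 50-base words of HSPA1A, so the division of reads between them is uncertain. At the low end stood CRYAB at 0.163 ± 0.0102 RPKM, HSPB8 at 0.141 ± 0.0213 RPKM and DNAJA4 at 0.0579 ± 0.0313 RPKM, of which CRYAB and HSPB8 overlap within their SD. The heat shock factors were low as well, HSF1 at 4.71 ± 0.313 RPKM and HSF2 at 3.87 ± 0.128 RPKM.

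**Figure D1:**
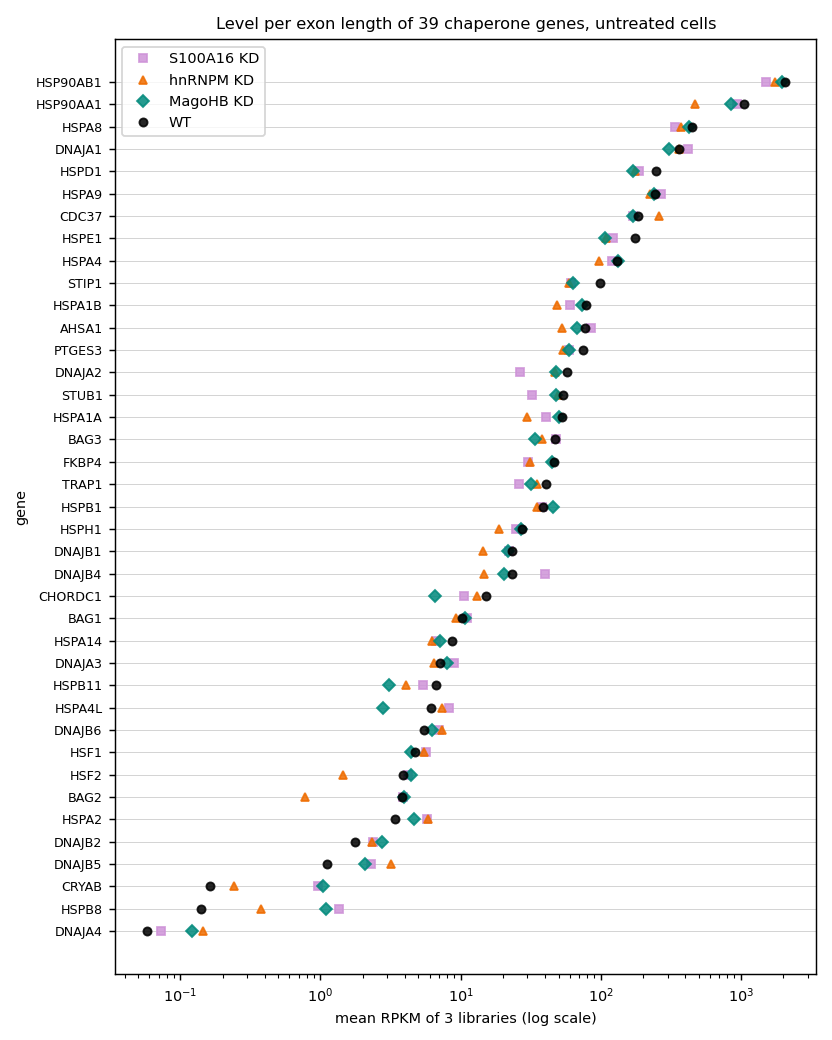
Mean deposited RPKM of each of the 39 genes (log scale) in the untreated S100A16 KD, hnRNPM KD, MagoHB KD and WT cells, n = 3 libraries each, ordered by the level in WT. HSP90AB1 is highest and DNAJA4 lowest in WT, and HSF2 and BAG2 in the hnRNPM KD and HSPB8 and CRYAB in the S100A16 and MagoHB KDs stand well off their WT level.

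The H2O2 groups address whether a 2 h oxidant exposure changes these mRNAs. No member was called after H2O2 in WT cells (0 of 39, against 0.223% of all genes called in either direction) or in S100A16 KD cells (0 of 39, against 0.0134%). At an unadjusted p under 0.05 edgeR gave 1 member in WT and 2 in the KD, and DESeq2 also called 0 in each. The share of all genes at that unadjusted threshold is not given, here or for the interaction below, so those counts carry no reading. The inducible genes did not stand out. HSPA1A had 133, 145 and 141 CPM in H2O2-treated WT cells, against 154, 132 and 142 CPM in untreated WT cells, a log2 difference of -0.03 ± 0.09 (SE). DNAJB1, an HSF1 target that drives HSP70 disaggregation, had 96.5, 98.3 and 93.4 CPM in H2O2-treated WT cells, against 93.3, 91.4 and 96.4 CPM in untreated WT cells. For both genes the groups overlapped. The 95% interval of the log2 difference (1.96 SE to each side) lay within 0.5 of zero for 36 of 39 members in each background, the exceptions being the 3 lowest genes HSPB8, CRYAB and DNAJA4.

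Apart from the low-count DNAJA4, the lowest fitted difference after H2O2 in WT cells was that of HSP90AA1, which had 5395, 5244 and 5134 CPM in H2O2-treated WT cells, against 6184, 6118 and 5765 CPM in untreated WT cells. All H2O2 libraries lay below all untreated ones, as was the case, in one direction or the other, for 10 of 39 members and for 18.3% of all genes. The log2 difference of -0.20 ± 0.10 was not called (edgeR adjusted p = 0.776), but a fit of the WT libraries alone called it at -0.19 (edgeR adjusted p = 0.000108), and leaving out S100A16 KD 1, hnRNPM KD 3 and MagoHB KD 2 gave -0.20 (edgeR adjusted p = 0.00685). In S100A16 KD cells HSP90AA1 had 4823, 4683 and 4174 CPM with H2O2, against 4592, 4681 and 4366 CPM without it, and the groups overlapped. CHORDC1, an HSP90 cochaperone with zinc-binding CHORD domains, was at log2 -0.13 in both backgrounds, with 160.4, 164 and 159.7 CPM in H2O2-treated WT cells, against 177, 179.6 and 175 CPM in untreated WT cells. Fitted with the WT libraries alone it was called (edgeR adjusted p = 0.0326), and with the S100A16 KD libraries alone as well (edgeR adjusted p = 0.0258).

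In S100A16 KD cells 15 of 39 members had H2O2 libraries that all lay on one side of the untreated ones, against 21.2% of all genes, with 11 above (12.4% of all genes) and 4 below (8.82%). HSP90AB1 had 4854, 4729 and 4511 CPM in the H2O2-treated KD, against 4203, 4241 and 4191 CPM in the untreated KD, a log2 difference of 0.16 ± 0.08 (edgeR adjusted p = 0.775). CDC37, the cochaperone that brings protein kinases to HSP90, had 552, 555 and 528 CPM in the H2O2-treated KD, against 479, 481 and 484 CPM in the untreated KD (log2 0.18 ± 0.06, edgeR adjusted p = 0.533). The groups did not overlap for either gene. In a fit of the S100A16 KD libraries alone CDC37, HSP90AB1 and BAG1 were called higher and CHORDC1, HSPH1 and HSPA1A lower, at log2 differences from -0.15 to 0.17. The share of all genes called in that fit is not given here, so these calls cannot be set beside it. No member differed between the backgrounds in its response to H2O2 (0 of 39 called and 0 at an unadjusted p under 0.05, against 0.0938% of all genes called, and 0 by DESeq2). The largest fitted interaction was that of DNAJA4 (log2 1.26 ± 0.62, edgeR adjusted p = 0.97), which rests on 6 to 34 counts per library in those 4 groups. The interaction of HSP90AB1, 0.20 ± 0.12, was called in a fit of the 4 groups alone (0.18, edgeR adjusted p = 0.0464) and without the 3 libraries named above (0.20, edgeR adjusted p = 0.0494).

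**Figure D2:**
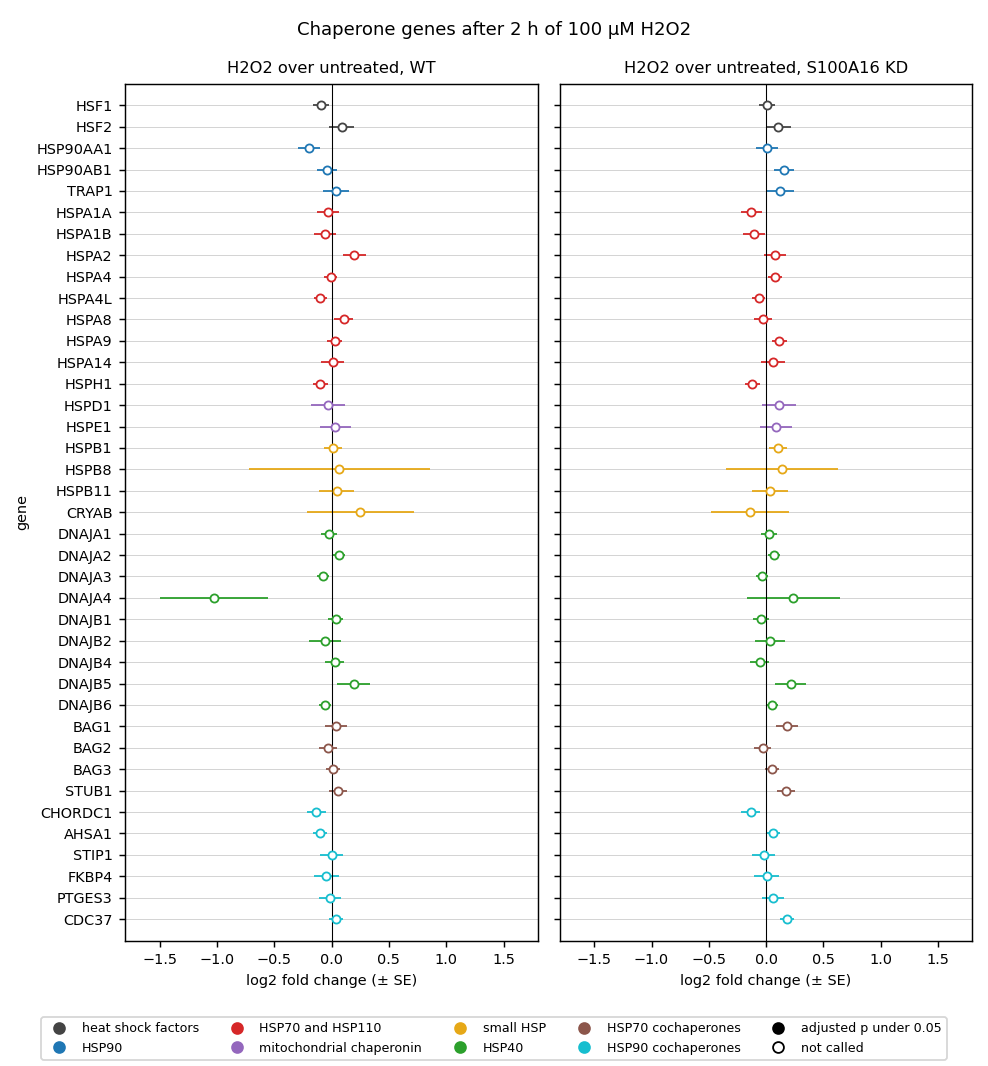
Log2 fold change after 2 h of 100 µM H2O2 with its SE for each gene, in WT (left) and S100A16 KD cells (right), n = 3 libraries per group, coloured by role. All symbols are open because 0 of 39 genes were called, and only the low-count genes DNAJA4, HSPB8 and CRYAB have wide errors.

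Against untreated WT, most chaperone mRNAs were lower in every KD, while a few were higher. The higher members were HSPB8, CRYAB, DNAJB4, DNAJB5, HSPA2 and HSPA4L in the S100A16 KD, HSPA2, HSPA4L, CDC37, DNAJA4, DNAJB5 and DNAJB6 in the hnRNPM KD, and HSPB8, CRYAB, DNAJB2, DNAJB5 and HSPA2 in the MagoHB KD. In the S100A16 KD 23 members fell and 6 rose, against 24.8% of all genes called lower and 27.6% called higher, and the median log2 difference was -0.31, against 0.06 for all genes. Of the same members 28 fell and 6 rose in the hnRNPM KD, against 23.8% and 25.4% of all genes called, with a median of -0.38, against 0.02 for all genes. The MagoHB KD had 26 lower and 5 higher, against 22.3% and 23.3%, with a median of -0.28, against 0.04 for all genes. Under H2O2 the S100A16 KD had 21 members lower and 8 higher than H2O2-treated WT cells, against 24.7% and 27.9%, with a median of -0.21. These comparisons share the WT libraries, so their values are set side by side only. Scaled by total counts alone, the split was 16 lower and 12 higher in the S100A16 KD, 17 and 15 under H2O2, 23 and 8 in the hnRNPM KD, and 15 and 9 in the MagoHB KD, with medians of -0.08, -0.03, -0.27 and -0.07. In the untreated KDs the medians of all genes under that scaling, given above, were positive, so those of the members remained below them. Shares of all genes called under that scaling are not given here. That scaling called higher some members that TMM did not call, namely HSF1, DNAJA1, DNAJA3, DNAJB2, DNAJB6 and AHSA1 in the untreated S100A16 KD, HSF1 and DNAJB2 in the hnRNPM KD, and HSPB1, DNAJA3, DNAJA4 and DNAJB6 in the MagoHB KD. In bulk RNA, fewer cells of a state and less RNA per cell cannot be told apart.

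**Figure D3:**
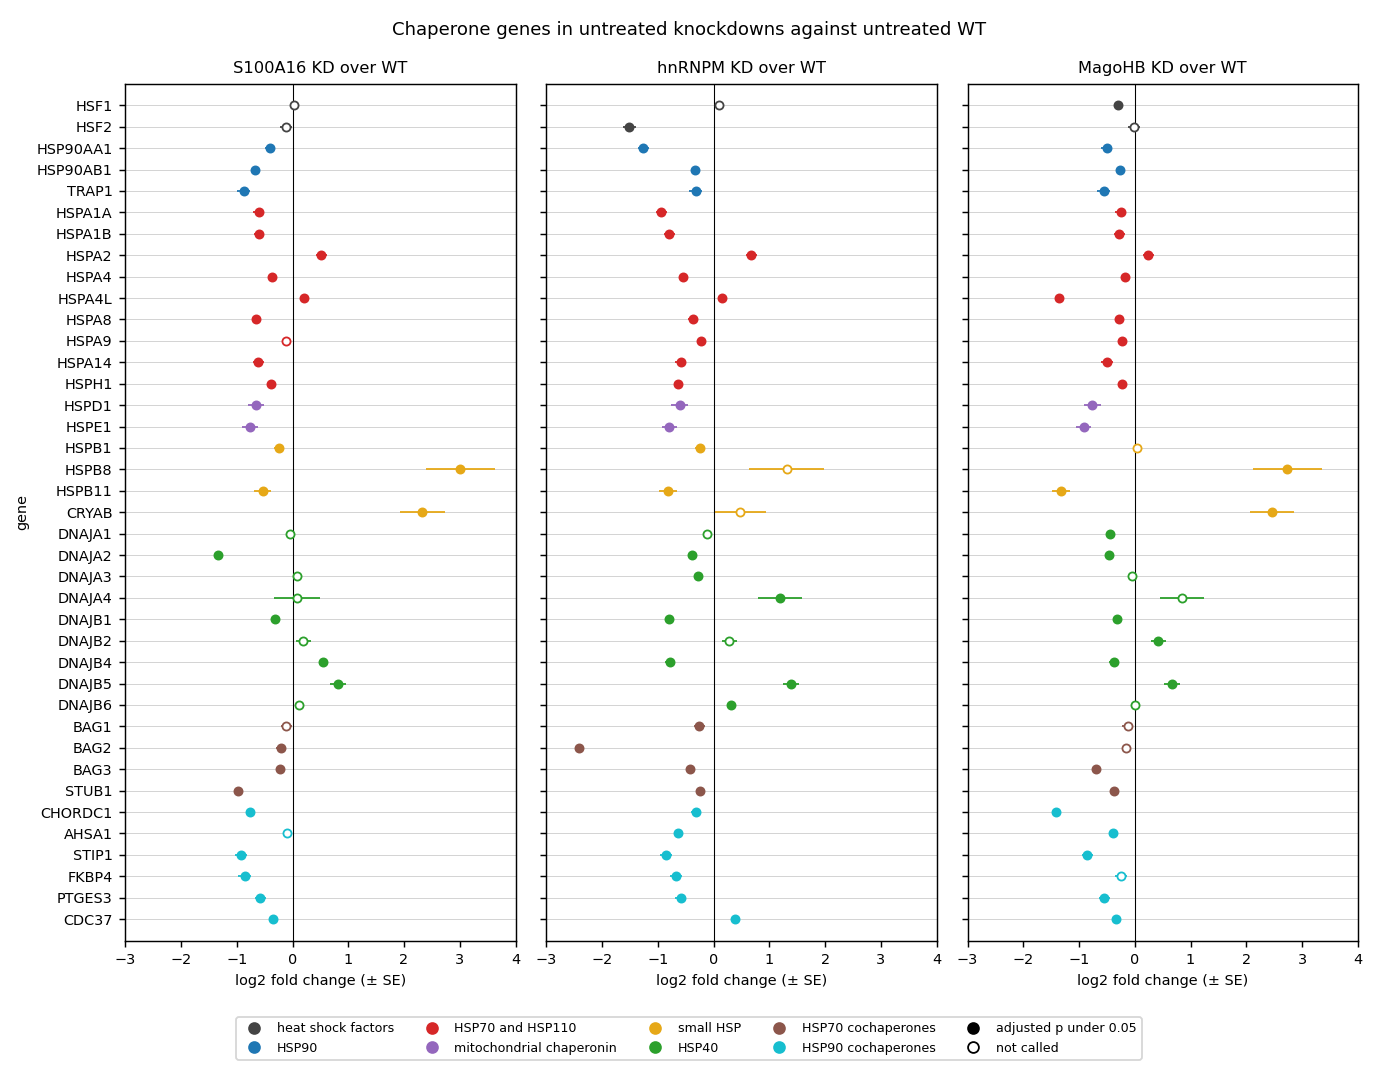
Log2 fold change with its SE for each gene in the untreated S100A16, hnRNPM and MagoHB KDs over untreated WT, n = 3 libraries per group, coloured by role; filled symbols were called at an adjusted p under 0.05. Most filled symbols lie left of zero in all 3 panels, with HSPB8 and CRYAB far right in the S100A16 and MagoHB KDs and BAG2 and HSF2 far left in the hnRNPM KD.

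HSF2 was called in the hnRNPM KD, while the calls of HSF1 depended on the scaling. HSF2 (chr6:122399546-122433119), a factor that can form mixed trimers with HSF1, had 4.8, 3.75 and 3.42 CPM in the hnRNPM KD, against 11.6, 11.1 and 11.6 CPM in WT. The groups were far apart, at 35% of WT (log2 -1.52 ± 0.12, edgeR adjusted p = 4.59e-10). HSF2 stood between 10.2 and 12.6 CPM in every library of the S100A16 and MagoHB KDs, with log2 differences of -0.11 and -0.02 without treatment. HSF1, the main activator of heat shock genes, had 23.1, 22.1 and 21.7 CPM in the MagoHB KD, against 25.4, 28.9 and 27.7 CPM in WT (log2 -0.29 ± 0.07, edgeR adjusted p = 0.00156). That call was lost with total counts alone (-0.08, edgeR adjusted p = 0.318). In the S100A16 and hnRNPM KDs HSF1 was at 0.03 ± 0.07 and 0.10 ± 0.07, neither called, but total counts alone gave 0.26 (edgeR adjusted p = 0.00228) and 0.21 (edgeR adjusted p = 0.0127), both called higher.

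All 3 HSP90 members fell in every untreated KD, with HSP90AA1 the lowest of them in the hnRNPM KD. In the other KDs TRAP1 had the lowest fitted value, but its distance from the next gene was about the size of their errors. Among all genes, 24.8%, 23.8% and 22.3% were called lower in the S100A16, hnRNPM and MagoHB KDs. HSP90AA1 (chr14:102080738-102139699) had 2623, 2742 and 2174 CPM in the hnRNPM KD, against 6184, 6118 and 5765 CPM in WT, or 41.7% of WT (log2 -1.26 ± 0.10, edgeR adjusted p = 1.62e-09). It had 4592, 4681 and 4366 CPM in the S100A16 KD (log2 -0.41 ± 0.10) and 4845, 3470 and 4426 CPM in the MagoHB KD (log2 -0.50 ± 0.10), all below the WT libraries. In the S100A16 KD that call was lost with total counts alone (-0.17, edgeR adjusted p = 0.0755). HSP90AB1 (chr6:44246166-44253888) was lowest in the S100A16 KD, with 4203, 4241 and 4191 CPM, against 6791, 6694 and 6550 CPM in WT (log2 -0.67 ± 0.08, edgeR adjusted p = 9.81e-07). HSP90AB1 had 5502, 5784 and 4650 CPM in the hnRNPM KD (log2 -0.33 ± 0.08, edgeR adjusted p = 0.00255). HSP90AB1 had 6318, 4642 and 5805 CPM in the MagoHB KD (log2 -0.26 ± 0.08, edgeR adjusted p = 0.0164), which without MagoHB KD 2 was -0.14 and no longer called (edgeR adjusted p = 0.084), and with total counts alone -0.05 (edgeR adjusted p = 0.544). TRAP1, the mitochondrial HSP90, had 122, 126 and 129 CPM in the S100A16 KD, against 234, 227 and 233 CPM in WT, or 54.4% of WT (log2 -0.88 ± 0.12, edgeR adjusted p = 7.3e-06). It was at -0.56 ± 0.12 in the MagoHB KD and at -0.32 ± 0.12 in the hnRNPM KD, where it was not called without hnRNPM KD 3 (-0.23, edgeR adjusted p = 0.164), without any 1 of the WT libraries or with total counts alone (-0.21, edgeR adjusted p = 0.0953). The exons of TRAP1 overlap those of DNASE1 on the other strand over 29.3% of their length, and use of strand in counting is not given.

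The balance of the cytosolic HSP90 mRNAs can be read within a library, where scaling cancels. The ratio of HSP90AA1 to HSP90AB1 in RPKM was 0.271, 0.269 and 0.266 in the hnRNPM KD, against 0.517, 0.519 and 0.5 in WT. It was 0.431 ± 0.0058 in the MagoHB KD and 0.613 ± 0.0187 in the untreated S100A16 KD, against 0.512 ± 0.0106 in WT. The ratio was lower than in WT in both the hnRNPM and MagoHB KDs and higher in the S100A16 KD, with no overlap of libraries. With H2O2 it was 0.551 ± 0.0218 in the S100A16 KD, against 0.613 ± 0.0187 without H2O2, and 0.46 ± 0.0089 in WT, against 0.512 ± 0.0106 without H2O2. The libraries did not overlap in any of the 6 comparisons made, and each had a two-sided exact permutation p of 0.1, the smallest that 3 against 3 allows. HSP90AA1 shares 17.5% and HSP90AB1 18.8% of its 50-base words with other annotated transcripts, chiefly those of the pseudogenes HSP90AA2P and HSP90AB3P.

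**Figure D4:**
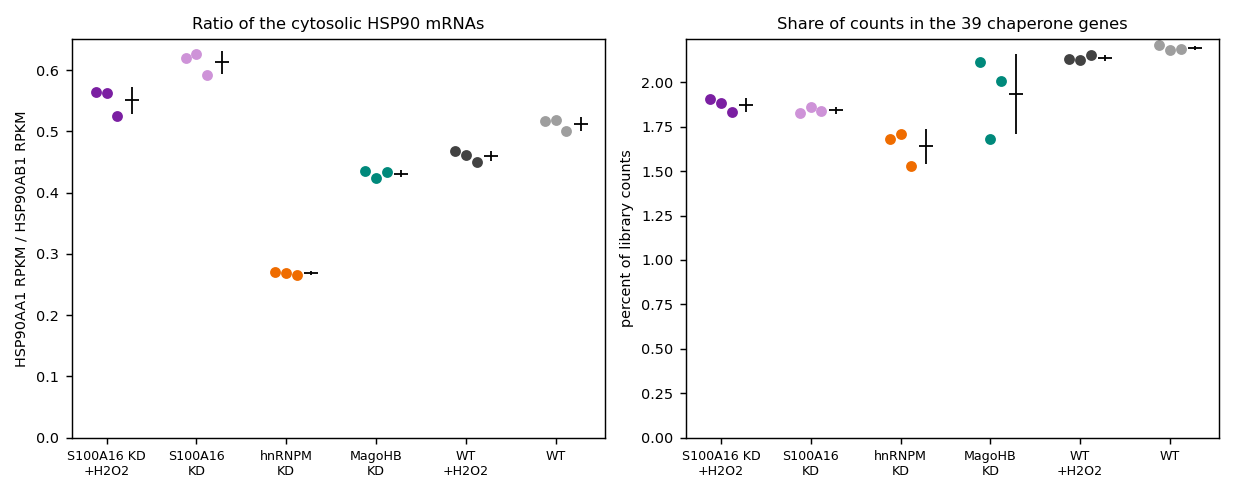
Left, ratio of HSP90AA1 to HSP90AB1 RPKM in each library; right, percent of library counts in the 39 genes; points are libraries and bars mean ± SD, n = 3 per group. The hnRNPM KD has the lowest ratio (0.269 ± 0.0027) and the untreated S100A16 KD the highest (0.613 ± 0.0187), and the share of counts in the hnRNPM KD is 1.64 ± 0.0982%, against 2.19 ± 0.0129% in WT.

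Among the 9 HSP70 and HSP110 members, 6 fell and 2 rose in the S100A16 KD, 7 fell and 2 rose in the hnRNPM KD, and 8 fell and 1 rose in the MagoHB KD. Of all genes, 24.8%, 23.8% and 22.3% were called lower in these KDs and 27.6%, 25.4% and 23.3% higher. HSPA8 had 1523, 1535 and 1510 CPM in the S100A16 KD, against 2377, 2325 and 2464 CPM in WT, or 63.7% of WT (log2 -0.65 ± 0.08, edgeR adjusted p = 5.27e-07). It had 1876, 1827 and 1808 CPM in the hnRNPM KD (log2 -0.38 ± 0.08) and 2242, 1597 and 2077 CPM in the MagoHB KD (log2 -0.28 ± 0.08). All KD libraries of HSPA8 lay below all WT ones, though in the MagoHB KD total counts alone gave -0.07 (edgeR adjusted p = 0.384). HSPA1A (chr6:31815464-31817946), the classical heat-inducible HSP70, had 74.2, 74.1 and 75.4 CPM in the hnRNPM KD, against 154, 132 and 142 CPM in WT (log2 -0.94 ± 0.09, edgeR adjusted p = 5.65e-08). In the S100A16 KD HSPA1A had 94.4, 89.7 and 96.9 CPM (log2 -0.61 ± 0.09, edgeR adjusted p = 1.42e-05). Its near-identical copy HSPA1B was at -0.80 ± 0.10 and -0.60 ± 0.10 in those KDs. In the MagoHB KD HSPA1A had 138, 95.5 and 126 CPM, overlapping WT, and the call (log2 -0.26 ± 0.09, edgeR adjusted p = 0.0293) was lost without MagoHB KD 2 (-0.12, edgeR adjusted p = 0.16), as were those of HSPA1B and HSPA4. Total counts alone also ended the calls of these 3 genes in the MagoHB KD.

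HSPA4L (chr4:127781821-127840733), an HSP110 nucleotide exchange factor, moved apart from its family. It had 30.6, 31.9 and 28.9 CPM in the MagoHB KD, against 79.2, 76.8 and 77.4 CPM in WT, or 39.1% of WT (log2 -1.35 ± 0.06, edgeR adjusted p = 4.51e-14). It rose in the S100A16 KD, with 86.6, 91.9 and 90.2 CPM (log2 0.20 ± 0.05, edgeR adjusted p = 0.00359). HSPA4L had 88, 90 and 82.2 CPM in the hnRNPM KD (log2 0.16 ± 0.05, edgeR adjusted p = 0.0222), a call lost without WT 2, WT 3, hnRNPM KD 1 or hnRNPM KD 2. The related exchange factors HSPA4 and HSPH1 fell in all KDs, by 0.36 and 0.39 in the S100A16 KD, 0.56 and 0.65 in the hnRNPM KD, and 0.18 and 0.22 in the MagoHB KD. Total counts alone gave, in the MagoHB KD, 0.02 for HSPA4 and -0.02 for HSPH1, neither called. HSPA2, an HSP70 best known from the testis, rose: it had 26.9, 35.1 and 30 CPM in the S100A16 KD (log2 0.51 ± 0.10, edgeR adjusted p = 0.000126) and 34.8, 36 and 32 CPM in the hnRNPM KD (log2 0.67 ± 0.10, edgeR adjusted p = 5.6e-06), against 22.3, 20.5 and 21.7 CPM in WT. HSPA2 had 22.2, 29.7 and 24.5 CPM in the MagoHB KD, which overlap WT, and its call (log2 0.25 ± 0.10, edgeR adjusted p = 0.0437) was lost without MagoHB KD 2 (0.12, edgeR adjusted p = 0.312) and in most fits that left out another library. HSPA9 was at -0.11 in the S100A16 KD, uncalled, and fell by 0.23 in each of the hnRNPM and MagoHB KDs, calls that total counts alone did not keep. HSPA14, a ribosome-associated HSP70, fell by 0.61, 0.59 and 0.50 in the S100A16, hnRNPM and MagoHB KDs.

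The mitochondrial chaperonin genes HSPD1 and HSPE1, which encode the folding chamber and its lid and are transcribed from a shared promoter region on chromosome 2, fell together in every KD. All genes were called lower in 24.8%, 23.8% and 22.3% of cases in the S100A16, hnRNPM and MagoHB KDs. HSPE1 had 227, 226 and 221 CPM in the S100A16 KD, 251, 225 and 182 CPM in the hnRNPM KD and 243, 146 and 218 CPM in the MagoHB KD, against 376, 392 and 378 CPM in WT. All KD libraries of HSPE1 were below all WT ones, at log2 -0.76 ± 0.14 (edgeR adjusted p = 0.000229), -0.80 ± 0.14 (edgeR adjusted p = 0.000169) and -0.92 ± 0.14 (edgeR adjusted p = 5.87e-05) in the order just given. HSPD1 had 732, 722 and 745 CPM in the S100A16 KD, 826, 824 and 623 CPM in the hnRNPM KD and 828, 472 and 743 CPM in the MagoHB KD, against 1171, 1146 and 1149 CPM in WT, at -0.66, -0.61 and -0.76 ± 0.15. The lowest library of both genes was MagoHB KD 2. HSPD1 and HSPE1 overlap on opposite strands over 14.2% of the exon length of HSPE1, and share 24.8% and 27.2% of their 50-base words with other annotated transcripts. HSPE1 also overlaps the feature HSPE1-MOB4 on the same strand, over 9.71% of its exon length, and shares 16% of its words with it. HSPE1-MOB4 averaged 12285 counts per library and HSPE1 12016, so the division of reads between them is uncertain.

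The small heat shock proteins, ATP-independent chaperones that hold unfolding proteins, split by gene. Of the 4, 2 rose and 2 fell in the S100A16 KD, 0 rose and 2 fell in the hnRNPM KD, and 2 rose and 1 fell in the MagoHB KD. Of all genes, 27.6%, 25.4% and 23.3% were called higher in these KDs and 24.8%, 23.8% and 22.3% lower. HSPB8 (chr12:119178642-119221131), a partner of BAG3 in chaperone-assisted autophagy, had 3.59, 4.09 and 3.02 CPM in the untreated S100A16 KD, against 0.504, 0.455 and 0.364 CPM in WT, an 8.06-fold level (log2 3.01 ± 0.62, edgeR adjusted p = 0.000969). The H2O2-treated S100A16 KD had 3.48, 3.79 and 4.53 CPM of HSPB8, against 0.54, 0.138 and 0.758 CPM in H2O2-treated WT cells (log2 3.08 ± 0.63, edgeR adjusted p = 0.000892). In raw counts these are 143 to 200 per library in the S100A16 KD groups, against 6 to 26 in the WT groups. The summed leukocyte markers were also higher in the untreated S100A16 KD (8.17 to 8.3 CPM, against 2.89 to 3.64 CPM in WT), and their part in the differences of HSPB8 and CRYAB was not tested. In the MagoHB KD HSPB8 had 1.23, 5.44 and 2.05 CPM, all above WT (log2 2.74 ± 0.62, edgeR adjusted p = 0.00255), and 1.90 without MagoHB KD 2 (edgeR adjusted p = 0.0116). HSPB8 in the hnRNPM KD had 0.516, 0.732 and 1.98 CPM, and the log2 difference of 1.31 ± 0.68 was not called (edgeR adjusted p = 0.131). Its hnRNPM KD libraries too all lay above those of WT, the lowest by little. A fit of these groups alone called HSPB8 higher there (1.30, edgeR adjusted p = 0.0395).

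CRYAB (chr11:111908565-111923722), the small heat shock protein also known as alpha B-crystallin, was higher in the same KDs. It had 2.35, 2.82 and 2.98 CPM in the untreated S100A16 KD and 1.94, 4.29 and 2.61 CPM in the MagoHB KD, against 0.504, 0.568 and 0.546 CPM in WT. Both KDs lay wholly above WT, at log2 2.33 ± 0.40 (edgeR adjusted p = 9.16e-05) and 2.46 ± 0.40 (edgeR adjusted p = 7.05e-05). CRYAB had 0.581, 0.282 and 1.33 CPM in the hnRNPM KD, overlapping WT (log2 0.48 ± 0.45, edgeR adjusted p = 0.403). Exons of CRYAB overlap HSPB2 on the other strand over 20.6% of their length, but HSPB2 itself averaged 1 count per library. Even at these levels CRYAB and HSPB8 remained at 1.44 RPKM or below in group means, whereas HSPB1, the major small heat shock protein of these cells, stood between 35 and 46 RPKM. HSPB1 fell by 0.25 in each of the S100A16 and hnRNPM KDs, was at 0.05 in the MagoHB KD, and lost both calls without WT 3 and with total counts alone. HSPB11, which also serves in intraflagellar transport under the name IFT25, had 12.6, 7.48 and 8.19 CPM in the MagoHB KD, against 21.8, 25 and 23.6 CPM in WT (log2 -1.32 ± 0.16, edgeR adjusted p = 2.87e-06). It fell by 0.54 in the S100A16 KD and by 0.82 in the hnRNPM KD, again with no overlap with WT. In the S100A16 KD total counts alone gave -0.30, which was not called (edgeR adjusted p = 0.0778).

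**Figure D5:**
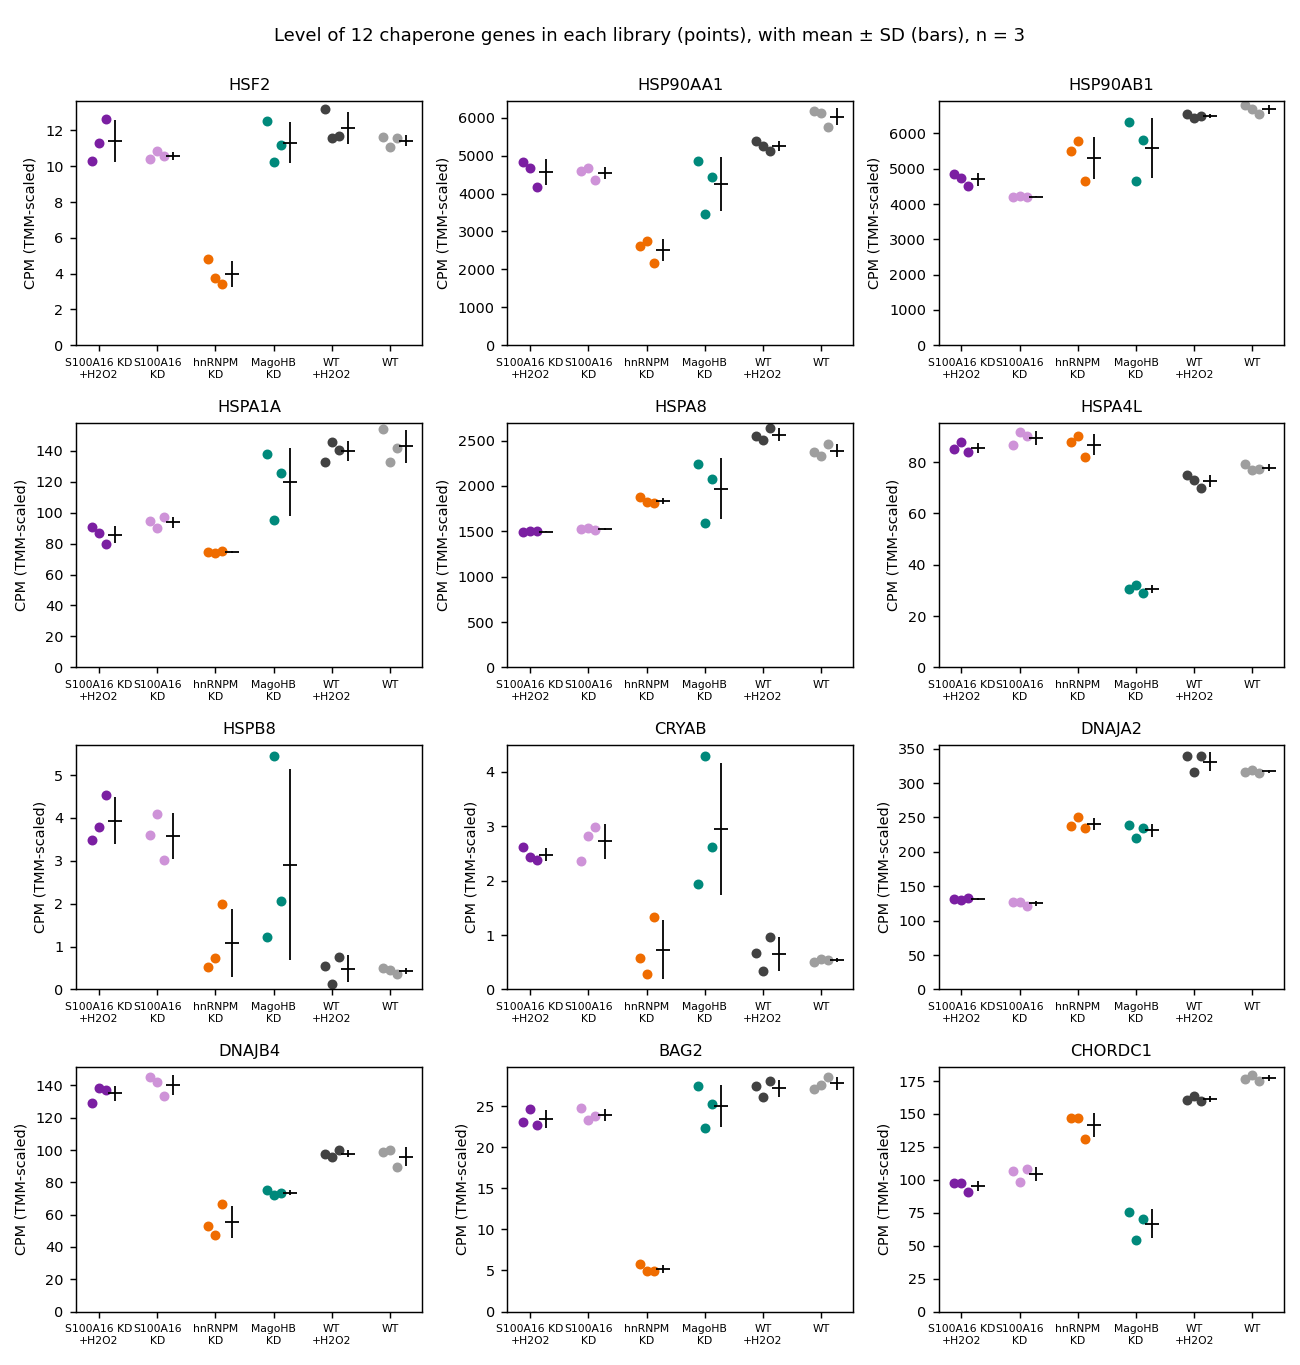
TMM-scaled CPM of 12 of the genes in each library (points, 3 per group) with mean ± SD; each panel has its own axis from 0. BAG2 and HSF2 are lowest in the hnRNPM KD, HSPA4L is lowest in the MagoHB KD, DNAJA2 is lowest in both S100A16 KD groups, and HSPB8 and CRYAB are high in both S100A16 KD groups and the MagoHB KD.

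Calls among the HSP40 members went in both directions. Of the 9, 2 rose and 2 fell in the S100A16 KD, 3 rose and 4 fell in the hnRNPM KD, and 2 rose and 4 fell in the MagoHB KD. Of all genes, 27.6%, 25.4% and 23.3% were called higher in these KDs and 24.8%, 23.8% and 22.3% lower. The 2 of 9 in either direction in the S100A16 KD is a smaller share than that of all genes. So is the 2 of 9 higher in the MagoHB KD. DNAJA2 (chr16:46955362-46973788), a J-domain partner of HSPA8, had 128, 127 and 121 CPM in the S100A16 KD, against 316, 319.5 and 315 CPM in WT, or 39.6% of WT (log2 -1.34 ± 0.05, edgeR adjusted p = 1.68e-14). The value under H2O2 was the same to the second decimal, -1.34 ± 0.05, with 131, 129.8 and 133 CPM in the S100A16 KD, against 339, 316 and 339 CPM in WT. DNAJA2 fell by 0.40 in the hnRNPM KD and by 0.45 in the MagoHB KD, with SE 0.05 for both. DNAJB4 (chr1:77979175-78017964), a stress-inducible relative of DNAJB1, rose in the S100A16 KD and fell in the others. It had 145, 142 and 133 CPM in the S100A16 KD (log2 0.55 ± 0.08, edgeR adjusted p = 8.31e-06), 52.9, 47.4 and 66.5 CPM in the hnRNPM KD (log2 -0.78 ± 0.08, edgeR adjusted p = 7.74e-08) and 75, 72.3 and 73.5 CPM in the MagoHB KD (log2 -0.38 ± 0.08, edgeR adjusted p = 0.00069), against 98.6, 99.7 and 89.3 CPM in WT. No KD library of DNAJB4 lay within the WT range. Total counts alone gave -0.17 in the MagoHB KD, which was not called (edgeR adjusted p = 0.117).

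DNAJB5, another type B J-domain protein, rose in all KDs. It had 12, 11.7 and 14.2 CPM in the S100A16 KD, 16.5, 19.2 and 21 CPM in the hnRNPM KD and 9.3, 15.1 and 9.92 CPM in the MagoHB KD, against 6.64, 7.43 and 7.56 CPM in WT. Every KD library exceeded every WT library, at log2 0.81 ± 0.14 (edgeR adjusted p = 7.15e-05), 1.39 ± 0.14 (edgeR adjusted p = 7.7e-08) and 0.67 ± 0.14 (edgeR adjusted p = 0.000647). DNAJB1 fell by 0.80 in the hnRNPM KD, with 59.8, 51.9 and 49.9 CPM, against 93.3, 91.4 and 96.4 CPM in WT (SE 0.07, edgeR adjusted p = 2.46e-09), and by 0.31 in each of the other KDs, calls that total counts alone did not keep. DNAJB6, an inhibitor of protein aggregation, rose by 0.32 ± 0.05 in the hnRNPM KD (edgeR adjusted p = 2.61e-05). DNAJA1 fell by 0.45 ± 0.07 in the MagoHB KD, with 865, 679.9 and 831 CPM, against 1089, 1099 and 1064 CPM in WT (edgeR adjusted p = 1.64e-05), and was at -0.04 and -0.12 in the S100A16 and hnRNPM KDs. DNAJA3, the mitochondrial member, fell by 0.28 in the hnRNPM KD and was within 0.08 of zero in the others. Among the untreated KDs DNAJB2 was called in the MagoHB KD (0.42 ± 0.13, edgeR adjusted p = 0.0145), a call lost without MagoHB KD 2 (0.18, edgeR adjusted p = 0.182), WT 2 or WT 3. DNAJA4, with 55 counts or fewer in any library, had 0.538, 1.18 and 1.16 CPM in the hnRNPM KD, against 0.183, 0.636 and 0.432 CPM in WT (log2 1.19 ± 0.39, edgeR adjusted p = 0.0155). The groups overlapped, and the call was lost without WT 1, hnRNPM KD 2 or hnRNPM KD 3.

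Of the 4 HSP70 cochaperones 3 fell in the S100A16 KD, 4 in the hnRNPM KD and 2 in MagoHB KD cells, with none higher, though total counts alone turned the median in the S100A16 KD to 0.02. The shares of all genes called lower were 24.8%, 23.8% and 22.3% in these KDs. The largest difference among the 4 was that of BAG2 (chr6:57172326-57189833), a nucleotide exchange factor that inhibits the ubiquitin ligase STUB1. BAG2 had 5.79, 4.96 and 4.9 CPM in the hnRNPM KD, against 27.1, 27.5 and 28.6 CPM in WT, or 18.8% of WT (log2 -2.41 ± 0.09, edgeR adjusted p = 1.88e-15). It was between 22.3 and 27.4 CPM in the libraries of the S100A16 and MagoHB KDs, with log2 -0.21 ± 0.08 in the S100A16 KD (edgeR adjusted p = 0.0242), a call lost without WT 3 or S100A16 KD 2 and 0.02 by total counts alone, and -0.15 in the MagoHB KD, uncalled. Its exons overlap those of RAB23 on the other strand over 42.7% of their length. STUB1, which marks chaperone clients for degradation, had 76.1, 65.8 and 66.4 CPM in the S100A16 KD, against 126, 151 and 133 CPM in WT, or 50.9% of WT (log2 -0.98 ± 0.08, edgeR adjusted p = 1.22e-09). Under H2O2 STUB1 had 75.1, 81.7 and 77.6 CPM in the S100A16 KD, against 150.3, 133 and 142 CPM in WT (log2 -0.86 ± 0.08). It fell by 0.24 in the hnRNPM KD, uncalled without hnRNPM KD 3 or WT 2, and by 0.37 in the MagoHB KD. Total counts alone ended both calls, at -0.13 (edgeR adjusted p = 0.143) in the hnRNPM KD and -0.16 (edgeR adjusted p = 0.0625) in the MagoHB KD. STUB1 overlaps JMJD8 on the other strand over 42.4% of its exon length. BAG3, the HSF1-induced exchange factor for autophagy clients, had 95.7, 80 and 88.2 CPM in the MagoHB KD, against 144, 140.4 and 144 CPM in WT (log2 -0.70 ± 0.06, edgeR adjusted p = 3.39e-09). It fell by 0.43 in the hnRNPM KD and by 0.23 in the S100A16 KD, where total counts alone gave 0.01. BAG1 fell only in the hnRNPM KD by the test (-0.26 ± 0.10, edgeR adjusted p = 0.0329), a call lost without hnRNPM KD 3 or any 1 WT library and with total counts alone (-0.14, edgeR adjusted p = 0.151).

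Of the 6 HSP90 cochaperones, 5 fell in each KD, not the same 5. In the S100A16, hnRNPM and MagoHB KDs 24.8%, 23.8% and 22.3% of all genes were called lower. STIP1, the adaptor between HSP70 and HSP90, had 267, 267 and 261 CPM in the S100A16 KD, 292, 298 and 248 CPM in the hnRNPM KD and 325, 213 and 302 CPM in the MagoHB KD, against 507, 503 and 504 CPM in WT. No KD library came near WT, at log2 -0.93 ± 0.10 (edgeR adjusted p = 4.69e-07), -0.85 ± 0.10 (edgeR adjusted p = 1.46e-06) and -0.85 ± 0.10 (edgeR adjusted p = 2.05e-06). CHORDC1 (chr11:90201160-90223364), whose promoter holds the run of 3 elements printed above, had 75.7, 54.4 and 70 CPM in the MagoHB KD, 107, 98.4 and 108 CPM in the S100A16 KD and 147, 147 and 131 CPM in the hnRNPM KD, against 177, 179.6 and 175 CPM in WT. The KDs stood in that order without overlap, at log2 -1.41 ± 0.08 (edgeR adjusted p = 1.27e-11), -0.76 ± 0.08 (edgeR adjusted p = 1.03e-07) and -0.32 ± 0.08 (edgeR adjusted p = 0.00256). FKBP4, an immunophilin of steroid receptor complexes, had 147, 145 and 145 CPM in the S100A16 KD, against 266, 262 and 266 CPM in WT (log2 -0.86 ± 0.11, edgeR adjusted p = 4.51e-06). It fell by 0.68 in the hnRNPM KD and was at -0.25 in the MagoHB KD, uncalled (edgeR adjusted p = 0.0784). PTGES3, the cochaperone that stabilises client-bound HSP90, fell by 0.58, 0.59 and 0.55 in the S100A16, hnRNPM and MagoHB KDs. AHSA1, the activator of the HSP90 ATPase, had 162, 158 and 157 CPM in the hnRNPM KD, against 250.5, 245 and 246 CPM in WT (log2 -0.64 ± 0.06, edgeR adjusted p = 1.18e-08), fell by 0.40 in the MagoHB KD and was at -0.09 in the S100A16 KD. CDC37 went the other way in the hnRNPM KD, with 743, 875 and 788 CPM, against 628, 617 and 602 CPM in WT (log2 0.38 ± 0.06, edgeR adjusted p = 2.4e-05). It fell by 0.36 in the S100A16 KD, uncalled with total counts alone (-0.12, edgeR adjusted p = 0.0578), and by 0.34 in the MagoHB KD.

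Under H2O2, small heat shock and J-domain genes again led the members that were higher in the S100A16 KD than in WT cells. HSPB8, CRYAB (log2 1.94 ± 0.40, edgeR adjusted p = 0.000546) and DNAJA4 (1.35 ± 0.46, edgeR adjusted p = 0.018) were highest, followed by DNAJB5 (0.83 ± 0.14), DNAJB4 (0.47 ± 0.08), HSPA2 (0.39 ± 0.10), HSPA4L (0.24 ± 0.05) and DNAJB6 (0.23 ± 0.05). CRYAB had 2.61, 2.43 and 2.38 CPM in the H2O2-treated S100A16 KD, against 0.662, 0.345 and 0.962 CPM in H2O2-treated WT cells. DNAJA4 had 0.745, 0.397 and 0.421 CPM in the H2O2-treated KD, against 0.221, 0.138 and 0.262 CPM in H2O2-treated WT cells. The groups did not overlap for either gene, but the call of DNAJA4 was lost without S100A16 KD with H2O2 1 or WT with H2O2 2. The lowest members were DNAJA2, STIP1 (-0.95 ± 0.10, edgeR adjusted p = 3.4e-07), STUB1, FKBP4 (-0.81 ± 0.11), TRAP1 (-0.79 ± 0.12), HSPA8 (-0.78 ± 0.08), CHORDC1 (-0.76 ± 0.08) and HSPE1 (-0.71 ± 0.14). HSPA8 had 1490, 1501 and 1501 CPM in the H2O2-treated KD, against 2549, 2512 and 2641 CPM in H2O2-treated WT cells, with no overlap. HSP90AA1 was at -0.21 ± 0.10 and not called (edgeR adjusted p = 0.0805), although its KD libraries all lay below the WT ones, while HSP90AB1 fell by 0.47 ± 0.08 (edgeR adjusted p = 8.09e-05).

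The KDs were also set directly against each other, and some counts of called members lay near the share of all genes. The S100A16 KD had 10 members higher and 11 lower than the MagoHB KD, against 23.2% and 21.7% of all genes. HSPA4L (log2 1.56 ± 0.06), DNAJB4 (0.93 ± 0.08) and HSPB11 (0.79 ± 0.16) were highest in that comparison and DNAJA2 (-0.88 ± 0.05) lowest; HSPB8 (0.27 ± 0.49) and CRYAB (-0.13 ± 0.33) were not called. The count of lower members ranged from 7 without MagoHB KD 1 to 14 without MagoHB KD 2, and was 17 without the 3 libraries left out together. Against the hnRNPM KD the S100A16 KD had 13 higher and 10 lower, against 24.6% and 24.2%, led by BAG2 (2.20 ± 0.09), CRYAB (1.85 ± 0.38), HSPB8 (1.70 ± 0.55), HSF2 (1.41 ± 0.12) and DNAJB4 (1.33 ± 0.08) on the high side and by DNAJA4 (-1.10 ± 0.39), DNAJA2 (-0.94 ± 0.05), CDC37 (-0.74 ± 0.06) and STUB1 (-0.73 ± 0.08) on the low side. Without hnRNPM KD 3, CRYAB was at 2.60 and HSPB8 at 2.53, while DNAJA4 was no longer called (-0.93, edgeR adjusted p = 0.0845). HSPB8 was also uncalled without S100A16 KD 2, hnRNPM KD 1 or hnRNPM KD 2. The hnRNPM KD had 10 higher and 15 lower than the MagoHB KD, against 22.3% and 22.2%, with HSPA4L (1.51 ± 0.06) and CHORDC1 (1.09 ± 0.08) highest and BAG2 (-2.26 ± 0.09), CRYAB (-1.98 ± 0.38) and HSF2 (-1.50 ± 0.12) lowest. HSPB8 (-1.43 ± 0.55, edgeR adjusted p = 0.0482) lost its call in that comparison without MagoHB KD 2 (-0.59, edgeR adjusted p = 0.348) and in most fits that left out another library. STIP1, PTGES3, HSPD1 and HSPE1 differed between no pair of KDs by the test, with log2 differences from -0.08 to 0.15.

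The members with a full heat shock element can be set beside the other members, which are not all known to lack one. Of these others, HSF1, HSPA14, HSPB11, CRYAB, STUB1 and FKBP4 had no promoter in the table and were not searched. A further 11 of the others held an element with 1 fixed letter different. In the S100A16 KD 5 of the 7 fell and 0 rose, with a median of -0.65, against 18 lower and 6 higher of the other 32 with a median of -0.24. In the hnRNPM KD 5 fell and 1 rose (median -0.33), against 23 and 5 of the others (median -0.41), and in the MagoHB KD 6 fell and 0 rose (median -0.45), against 20 and 5 (median -0.27). All genes were called lower in 24.8%, 23.8% and 22.3% of cases in the S100A16, hnRNPM and MagoHB KDs, and higher in 27.6%, 25.4% and 23.3%. In each KD, members called higher were a smaller share than that of all genes, with or without a full element. After H2O2 0 of the 7 were called in either background, with medians of -0.04 in WT and 0.02 in the S100A16 KD. The shares of all genes called were 0.223% and 0.0134% there. Of the members with an element, DNAJA1 stood at -0.04 and DNAJB6 at 0.12 in the S100A16 KD, neither called with TMM. DNAJA2, which held no full element in its promoter in the table, had the lowest value of all 39 there. The part of the element in any of these differences was not tested.

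Outside the 39 genes, the TRiC chaperonin was lower in every KD, and other groups of folding factors varied by KD. The shares of all genes called lower and higher, given above, were 24.8% and 27.6% in the S100A16 KD, 23.8% and 25.4% in the hnRNPM KD, and 22.3% and 23.3% in the MagoHB KD. All 8 subunits of TRiC, the cytosolic chaperonin that folds actin and tubulin, fell in the S100A16 KD, with a median log2 difference of -1.01, led by CCT4 (-1.25 ± 0.09, edgeR adjusted p = 1.41e-10) and CCT2 (-1.01 ± 0.07, edgeR adjusted p = 3.16e-10). TRiC subunits fell in 7 of 8 cases in the hnRNPM KD (median -0.52) and in 8 of 8 in the MagoHB KD (median -0.59). Prefoldin, which passes nascent chains to TRiC, fell in 6 of 6 subunits in the S100A16 KD, PFDN1 by 2.08 ± 0.07 (edgeR adjusted p = 2.95e-16). Prefoldin subunits fell in 3 cases and rose in 1 in the hnRNPM KD, and 4 fell and 0 rose in the MagoHB KD. Of 14 further HSP90 cochaperones tested, 10 fell and 1 rose in the S100A16 KD, 3 fell and 1 rose in the hnRNPM KD, and 9 fell and 1 rose in the MagoHB KD. The 3 of 14 in the hnRNPM KD is a smaller share than that of all genes called lower there. Among them FKBP5, a glucocorticoid-responsive immunophilin, fell by 1.36 ± 0.12 in the S100A16 KD (edgeR adjusted p = 1.18e-07) and by 0.95 ± 0.12 in the hnRNPM KD (edgeR adjusted p = 7.1e-06). Of 29 further J-domain proteins, 12 fell and 7 rose in the S100A16 KD, 6 fell and 11 rose in the hnRNPM KD, and 12 fell and 2 rose in the MagoHB KD. In the hnRNPM KD the lower J-domain proteins were again a smaller share than that of all genes. Of 13 further HSP70 proteins and cochaperones, 4 fell and 3 rose, 6 fell and 2 rose, and 5 fell and 2 rose in those KDs. No gene of these lists was called after H2O2 in either background by edgeR. Values for genes outside the 39 are given with TMM scaling only.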

How the data were processed

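Poly(A)-selected mRNA of A549 cells with an RNA integrity number of at least 8 was sequenced, per the labels' protocols. The authors deposited raw counts and RPKM per gene for 18 libraries. The submitters' processing notes name HISAT2 2.2.1, SAMtools 1.15.1, StringTie 2.1.4, FastQC 0.11.9, DESeq2 1.32.0 and GRCh38. They state no counting program, annotation or use of strand. The deposited RPKM matched counts divided by exon length and total count to within a factor of 0.001 of the value, in 100% of 531539 cells above 0. Of counts up to 19, between 18.6% and 22% were odd, so counting error may be understated, and halved counts were tried as an alternative.

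From the counts, edgeR 4.0.16 (R 4.3.3) was fitted to all 18 libraries with 1 mean per group, TMM scaling, filterByExpr over the 6 groups (22382 genes kept), robust quasi-likelihood F tests and Benjamini-Hochberg adjustment over all genes tested, called under 0.05. The script was tested on simulated data. Alternatives were total counts in place of TMM, DESeq2 1.42.0, other filters, halved counts, the compared groups alone, a replicate block, each library left out in turn and 3 libraries left out together. Per comparison, full statistics were given to up to 8 called members with the highest and 8 with the lowest fold change. The members, lists and tests were chosen with earlier results of these data known. Total counts of 36612997 to 51406431 per library make counting error small except for DNAJA4, HSPB8 and CRYAB.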

Additional observations from a re-analysis of the deposited data

How the results depend on the processing

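Across 27 alternatives, 142 of the 192 called gene results kept their direction and call in every alternative, and 26 lost the call with total counts in place of TMM. Signs turned in 10 of them. With total counts alone BAG3 was at 0.0118 and BAG2 at 0.0244 in the S100A16 KD against WT, and HSPA4 at 0.0226 in the MagoHB KD against WT. With total counts and S100A16 KD 1, hnRNPM KD 3 and MagoHB KD 2 left out, HSPB1 was at 0.0089, BAG3 at 0.0295 and BAG2 at 0.0097 in the S100A16 KD, and in the MagoHB KD HSPA1B was at 0.0514, HSPA8 at 0.0346, HSP90AB1 at 0.0410, HSPA1A at 0.0645, HSPA9 at 0.0226, HSPH1 at 0.0373 and HSPA4 at 0.0722. The cause was not tested.

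Counts of called members moved as follows. The shares of all genes called in the alternatives of this section are not given here. With total counts alone, 12 members were higher in the S100A16 KD against WT, 15 under H2O2, and 9 higher and 15 lower in the MagoHB KD. With the 3 libraries left out, the H2O2 comparison gave 1 lower in WT and 4 higher in the S100A16 KD, the interaction 1 higher, the MagoHB KD 3 higher, and the S100A16 KD against the MagoHB KD 17 lower. With both changes the H2O2 comparison gave 1 lower in WT and 1 lower in the S100A16 KD, the S100A16 KD had 13 higher against WT and 15 under H2O2, the MagoHB KD had 9 higher and 17 lower, and the S100A16 KD had 20 higher than the hnRNPM KD. With the compared groups alone, the H2O2 comparison gave 2 lower in WT and 3 higher and 3 lower in the S100A16 KD, the interaction 1 higher, the MagoHB KD 3 higher, and the S100A16 KD 6 lower than the MagoHB KD.

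Leaving out 1 library at a time gave, against WT, 6 to 7 higher and 21 to 23 lower in the S100A16 KD, 7 to 9 and 20 to 23 under H2O2, 5 to 8 and 25 to 29 in the hnRNPM KD, and 3 to 5 and 22 to 28 in the MagoHB KD. It gave 8 to 11 higher and 7 to 14 lower in the S100A16 KD against the MagoHB KD, 12 to 15 and 9 to 11 against the hnRNPM KD, 9 to 12 and 14 to 20 in the hnRNPM KD against the MagoHB KD, and 0 for H2O2 and the interaction. With replicate number as a block, 14 members instead of 15 were lower in the hnRNPM KD than in the MagoHB KD and all other counts were unchanged. Same-numbered libraries deviated together, with r over 0.1, in 4 of 45 pairs, and 8 of 18 libraries correlated best with their own number, so the numbers were not taken to pair samples. The strongest correlations were between the hnRNPM and MagoHB KDs, at r = 0.622, -0.392 and -0.529 for replicates 1, 2 and 3. Their cause was not tested.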

Other observations

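Most measured chaperones of the endoplasmic reticulum (ER) were higher in the S100A16 and hnRNPM KDs, but not in the MagoHB KD, where nearly all that were called were lower. Of 13 measured, 8 rose and 3 fell in the S100A16 KD (median log2 difference 0.25) and 8 rose and 3 fell in the hnRNPM KD (median 0.34), whereas 1 rose and 6 fell in the MagoHB KD (median -0.12). Values of this list are given with TMM scaling only. Changes of the size of the S100A16 and MagoHB KD medians depend on the scaling, as stated above. All genes were called higher in 27.6%, 25.4% and 23.3% of cases in the S100A16, hnRNPM and MagoHB KDs, and lower in 24.8%, 23.8% and 22.3%. DNAJB9, a J-domain protein of the ER, rose by 1.48 ± 0.09 in the S100A16 KD (edgeR adjusted p = 2.79e-11) and fell by 0.50 ± 0.10 in the hnRNPM KD (edgeR adjusted p = 0.000204). In the MagoHB KD the disulfide isomerases PDIA6 and PDIA4 fell by 0.68 ± 0.07 (edgeR adjusted p = 3.78e-08) and 0.63 ± 0.06 (edgeR adjusted p = 6.91e-09).

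Of 14 genes of mitochondrial protein quality control, 12 fell and 1 rose in the S100A16 KD, 3 fell and 1 rose in the hnRNPM KD, and 5 fell and 1 rose in the MagoHB KD. Set against the shares of all genes above, the 3 of 14 in the hnRNPM KD is below the share called lower there. GRPEL1, the nucleotide exchange factor of HSPA9, fell by 1.67 ± 0.09 (edgeR adjusted p = 8.86e-13) and TIMM44, which tethers HSPA9 to the import channel, by 1.20 ± 0.07 (edgeR adjusted p = 6.23e-12) in the S100A16 KD. YME1L1, an inner membrane protease, fell by 1.26 ± 0.06 in the MagoHB KD (edgeR adjusted p = 2.85e-13). Of 10 other known HSF1 targets, 2 rose and 3 fell in the S100A16 KD, 3 rose and 0 fell in the hnRNPM KD, and 3 rose and 4 fell in the MagoHB KD. Across all genes tested, 27.6%, 25.4% and 23.3% were called higher in these KDs and 24.8%, 23.8% and 22.3% lower. The 2 of 10 higher in the S100A16 KD and 0 of 10 lower in the hnRNPM KD are smaller shares than those of all genes. SERPINH1, the collagen chaperone, rose by 1.55 ± 0.13 in the S100A16 KD (edgeR adjusted p = 5.81e-08) and by 0.89 ± 0.13 in the hnRNPM KD (edgeR adjusted p = 3.37e-05). HMOX1, heme oxygenase, rose by 1.15 ± 0.07 in the MagoHB KD (edgeR adjusted p = 1.9e-11) and fell by 0.78 ± 0.07 in the S100A16 KD (edgeR adjusted p = 9.41e-09).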
